A study of Mus musculus with 2 samples.

Results

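The microRNA genes Mir191, Mir425 and Mir378a were read in the facial prominences of mouse embryos, the tissue buds that form the face and jaws. Of the 1973 miRNA genes with a row, 3 are described here: Mir425 by its own row, Gm24083 as the row at the place of Mir191, and Gm25301 as the row at the place of Mir378a. The last 2 rows were annotated on the strand opposite to the miRNA, so their reads stood in the opposite-strand count column. All 3 were chosen by the reads they held in these libraries, on the gene strand for Mir425 and on the opposite strand for the others, so their levels and strands are given as a description, with no test.

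There were 2 libraries of small RNA under 30 bases, replicate 2 and replicate 1, both from strain B6NCrl at embryonic day 14.5, with no treatment, mutant or other group. The labels call each sample the face of a single pup, collected on a different day, and also give the sex as pooled male and female. The labels thus leave unclear how many embryos a sample holds, and day and replicate cannot be told apart. Reads on the gene strand of miRNA genes, the total to which levels were scaled, numbered 6602050 in replicate 2 and 2719153 in replicate 1. CPM below means counts scaled to 1000000 counts of that total. Marker miRNAs of the tissue were present. The epithelial list (7 of 7 with a row) summed to 67435 CPM in replicate 2 and 52450 CPM in replicate 1. The mesenchymal list (4 of 4) summed to 12119 and 17643 CPM, mostly from Mir214 (11066 and 16135 CPM). Its member Mir199a-1 went the other way, with 34.4 and 32.4 CPM. Of the cartilage list, Mir140 held 39367 and 40807 CPM, and Mir455 held 2335 and 2647 CPM.

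A miRNA is cut from a hairpin in a longer transcript, and 1 arm of the hairpin is loaded into Argonaute, where its seed (bases 2 to 8) pairs with target mRNAs. miR-191 and miR-425 come from neighbouring hairpins of one primary transcript, are found in many tissues, and are widely used as reference miRNAs in quantitative PCR. miR-378a comes from an intron of Ppargc1b, a coactivator of mitochondrial and fatty acid metabolism genes, and is known mainly from muscle, fat and liver.

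The mature arms of the 2 neighbouring hairpins, from RefSeq on GRCm38.p6 (the mm10 assembly), are shown because their reads make up 2 of the 3 levels. Capitals mark the seed.
miR-191-5p: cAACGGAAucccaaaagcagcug
miR-191-3p: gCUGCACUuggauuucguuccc
miR-425-5p: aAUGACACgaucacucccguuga
miR-425-3p: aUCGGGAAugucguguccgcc
The 2 miRNAs share no seed with each other. Among the RefSeq mouse mature miRNAs, 1 other, miR-489-3p, has the seed of miR-425-5p, and none has the seed of either arm of miR-191 or of miR-425-3p. The counts of Mir489 were 0 in both libraries, which allows up to 3 counts in each (0.454 CPM in replicate 2 and 1.10 CPM in replicate 1).

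The whole hairpins show where these arms lie, with the 5p and 3p arms in capitals.
Mir191 hairpin: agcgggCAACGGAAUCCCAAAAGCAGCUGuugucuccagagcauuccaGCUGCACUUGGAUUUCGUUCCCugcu
Mir425 hairpin: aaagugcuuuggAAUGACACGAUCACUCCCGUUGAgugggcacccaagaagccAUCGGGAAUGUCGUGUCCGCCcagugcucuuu
The files count reads per gene, so the 5p and 3p arms of a hairpin could not be separated.

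On mm10, Mir191 lies on chromosome 9 at 108568319 to 108568392 and Mir425 at 108568777 to 108568861, both on the plus strand, with 384 bases between the hairpins. GENCODE M21 places both inside the long exon (108567533 to 108569174) of an unspliced transcript of the noncoding gene 4833445I07Rik on the same strand. Its other transcript has exons at 108567893 to 108568180 and 108568484 to 108568774, so that Mir191 is intronic there and Mir425 lies just past its end. The protein-coding gene Dalrd3 starts 1025 bases beyond Mir425, also on the plus strand. Gm24083 (ENSMUSG00000092915.1) spans 108568295 to 108568414 on the minus strand and covers the Mir191 hairpin in full. Mir378a (chromosome 18, 61397835 to 61397900, on the minus strand) sits within an intron of Ppargc1b, in the direction of that gene. Gm25301 (ENSMUSG00000093026.1) covers it on the plus strand. The genes named Mir191 and Mir378a have no row in the files.

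All reads of the 2 stand-in rows lay on the strand of the miRNA. Gm24083 had 16403 opposite-strand reads in replicate 2 and 7727 in replicate 1, and 0 on its own strand in each. Gm25301 had 89005 and 37998 opposite-strand reads, and again 0 on its own strand. Mir425 (ENSMUSG00000065579.1), whose row carries the right strand, had 15284 gene-strand reads in replicate 2 and 5664 in replicate 1, with 0 on the opposite strand. A count of 0 allows up to 3 counts, for counting error only.

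Mir378a was the highest of the 3 loci. Gm25301, its stand-in, held 13481 CPM in replicate 2 and 13974 CPM in replicate 1, a mean of 13728 ± 348 CPM (SD, n = 2). Gm24083, for Mir191, held 2485 CPM in replicate 2 and 2842 CPM in replicate 1 (2663 ± 253 CPM). Mir425 held 2315 CPM in replicate 2 and 2083 CPM in replicate 1 (2199 ± 164 CPM). These 2 values of Mir425 were 0.232% (95% Wilson interval 0.228 to 0.235) and 0.208% (0.203 to 0.214) of the gene-strand reads. The order Mir378a, Mir191, Mir425 was the same in both libraries.

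**Figure D1:**
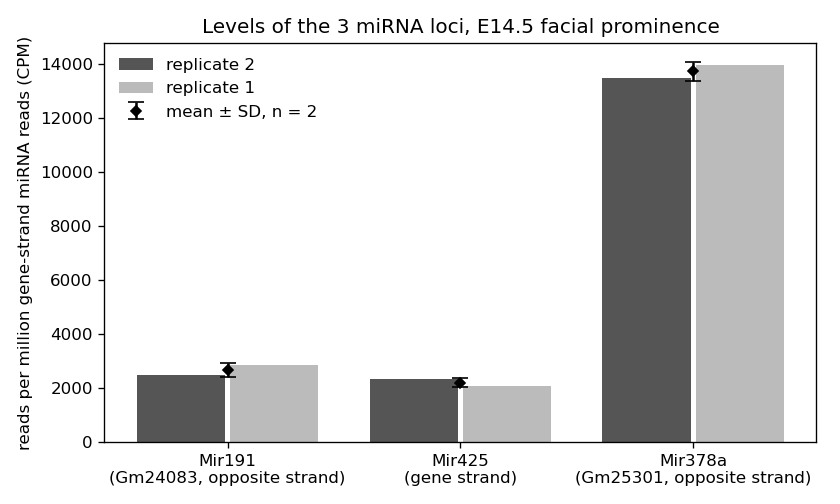
Level of each locus in CPM (reads scaled to 1000000 gene-strand miRNA reads) in replicate 2 and replicate 1, as bars, with the mean and SD of the 2 libraries as diamonds. Mir378a stands between 13481 and 13974 CPM, and Mir191 and Mir425 between 2083 and 2842 CPM.

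In raw reads Mir378a exceeded Mir425 5.82-fold in replicate 2 and 6.71-fold in replicate 1, and exceeded Mir191 5.43-fold and 4.92-fold. A read of this size covers about a whole mature miRNA, so counts were not divided by length. Divided by the hairpin lengths of 66, 74 and 85 bases, the mean levels of Mir378a, Mir191 and Mir425 were 208, 36.0 and 25.9 CPM per base, in the same order. Levels of different miRNAs also carry the biases of adapter ligation.

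Among 390 features with a mean of at least 10 counts (372 gene-strand and 18 opposite-strand rows), Gm25301 ranked 19, Gm24083 ranked 71 and Mir425 ranked 83 by mean CPM. These are ranks by counted reads. Reads with several positions are not counted, so a feature whose sequence recurs in another gene can rank too low. Next to Gm25301 were Mir30e (14976 ± 3279 CPM) above and Mir214 (13601 ± 3584 CPM) below, and neither differed from it beyond the spread of the replicates. Around Gm24083 stood Mir181d (2845 ± 422 CPM) and Mir139 (2637 ± 79.9 CPM), and around Mir425 stood Mir423 (2252 ± 326 CPM) and Mir484 (2069 ± 189 CPM). These neighbours also lay within the spread. The SDs of Mir378a, Mir191 and Mir425 were 2.54%, 9.48% and 7.46% of their means.

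Likeness in level was also measured as the distance in log2 CPM over the 2 libraries. The 3 features nearest to Mir425 were Mir467d (distance 0.085), Mir423 (0.11) and Mir484 (0.13). Mir423 and Mir484 are, like Mir425, used as reference miRNAs. Nearest to Gm24083 were Mir455 (0.14), a cartilage miRNA, Mir181d (0.15) and Mir139 (0.18). Nearest to Gm25301 were Mir206 (0.29), a skeletal muscle miRNA, Mir30e (0.32) and Mir127 (0.33). With 2 libraries, such likeness says only that the levels were close.

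The other genes of the miR-378 family were far below Mir378a. Mir378d, on chromosome 10, had 298 reads (45.1 CPM) in replicate 2 and 101 reads (37.1 CPM) in replicate 1. Mir378c, within an intron of Samd4 but on the other strand, had 92 reads (13.9 CPM) and 34 reads (12.5 CPM), and Mir378b, placed likewise in Msi2, had 12 reads (1.82 CPM) and 5 reads (1.84 CPM). Together they summed to 56.2 ± 6.65 CPM. Apart from Gm25301, which overlaps it, Mir378a shares its longest stretch, 20 bases, with Mir378c and 19 bases with Mir378b. A read that lies wholly within such a stretch has several positions and is not counted. Mir191 and Mir425 share at most 12 and 13 bases with any annotated miRNA gene that does not overlap them.

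The replicates were then compared with an exact two-sided binomial test of the counts, given TMM library sizes, with p-values adjusted by the Benjamini-Hochberg method over all 390 features. This compares 2 libraries, not conditions, and counts no spread between embryos. Of all features 52.3% were called at an adjusted p under 0.05, 27.7% higher in replicate 2 and 24.6% lower in replicate 2 (16.7% and 35.6% with total counts in place of TMM), so the share of loci called (3 of 3) has little weight. Across features the median absolute log2 ratio was 0.24. Over the 372 gene-strand rows alone, the biological coefficient of variation was 20.9%.

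Mir425 was higher in replicate 2, with a log2 ratio of replicate 2 over replicate 1 of 0.28 (counting SE 0.022, adjusted p = 2.39e-35). Gm24083, for Mir191, had a log2 ratio of -0.068 (SE 0.020, adjusted p = 0.00156). Its call was lost with DESeq2 size factors (-0.011, adjusted p = 0.712). Gm25301, for Mir378a, had a log2 ratio of 0.074 (SE 0.0088, adjusted p = 2.53e-16), which turned to -0.052 when total counts replaced TMM. Of all features 45.1% had an absolute ratio at least as large as that of Mir425, 84.9% as that of Gm24083 and 82.8% as that of Gm25301. All 3 loci thus differed less between the replicates than the SD of 0.43 that the coefficient of variation gives for a log2 ratio. That SD came from gene-strand counts, which hold no read of Gm24083 or Gm25301. TMM raised every log2 ratio by 0.13 over total counts, under which the median feature stood at -0.12, against 0.0030 with TMM.

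**Figure D2:**
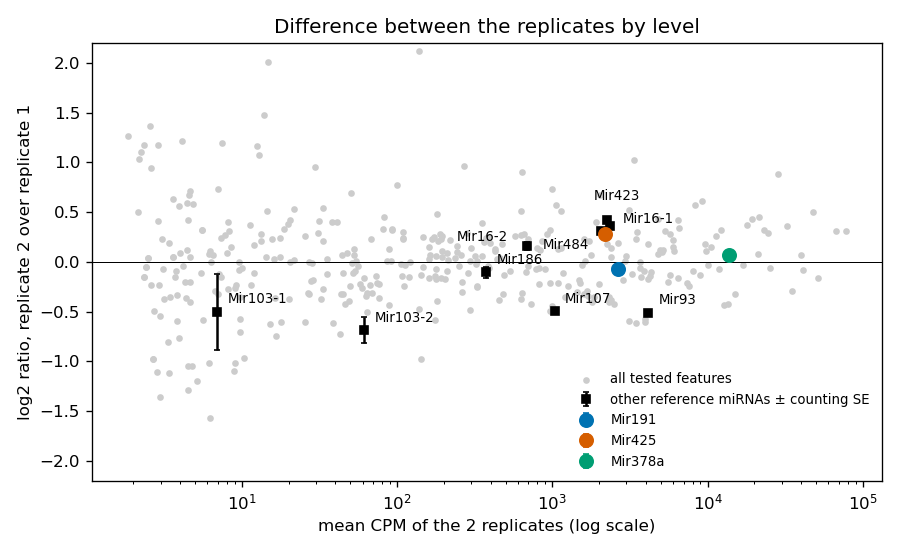
Log2 ratio of replicate 2 over replicate 1 against mean CPM (log scale) for the 390 tested features, with the 3 loci in colour and the other reference miRNAs as black squares with the counting SE; 1 feature lies outside the plotted range. Mir191 (-0.068) and Mir378a (0.074) lie near 0, and Mir425 (0.28) lies with Mir16-1, Mir423 and Mir484.

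A ratio of 2 loci within a library does not depend on how libraries are scaled. The 2 hairpins of the chromosome 9 cluster gave nearly equal counts in replicate 2, where Mir191 stood at 1.07 times Mir425, and less equal counts in replicate 1, where it stood at 1.36 times. Mir425 was 48.2% of their joint reads in replicate 2 and 42.3% in replicate 1. The log2 change of the ratio, replicate 2 over replicate 1, was -0.35 (counting SE 0.030, two-sided Fisher's exact test, Benjamini-Hochberg adjusted over 3 pairs of loci, p = 2.04e-30). Scaled to total counts, the joint level of the cluster moved little: 4800 CPM in replicate 2 and 4925 CPM in replicate 1, or 4862 ± 88.5 CPM. TMM raised every log2 ratio by 0.13 over total counts, so the direction of this small difference depends on the scaling.

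The same test gave a log2 change of -0.20 for Mir378a over Mir425 (SE 0.024, Fisher's exact test, adjusted p = 2.38e-17). For Mir378a over Mir191 the log2 change was 0.14 (SE 0.022, Fisher's exact test, adjusted p = 8.56e-11). Of the 3 pairs, the 2 that hold Mir425 had the larger changes. All 3 pairs share counts, so they are not independent of each other.

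Such a change within a cluster was common. Among 75 pairs of neighbouring features on one strand within 1000 bases, each with a mean of at least 10 counts, Fisher's exact test called 50.7% at an adjusted p under 0.05. Their median absolute log2 change was 0.27, and 30 pairs changed more than Mir191 and Mir425. Mir351 over Mir503 of the X-linked cluster, for example, changed by 0.77, and Mir93 over Mir25 by -0.42. By counted reads, the levels of Mir191 and Mir425 were closer than in most pairs. The higher member stood 1.21-fold above the lower one, against a median of 6.63-fold, and 5 of the 75 pairs were closer. Reads with several positions are not counted, so a member whose sequence recurs in another gene can stand too low. Whether this widened the median fold was not tested. Pairs that share a member are counted separately.

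**Figure D3:**
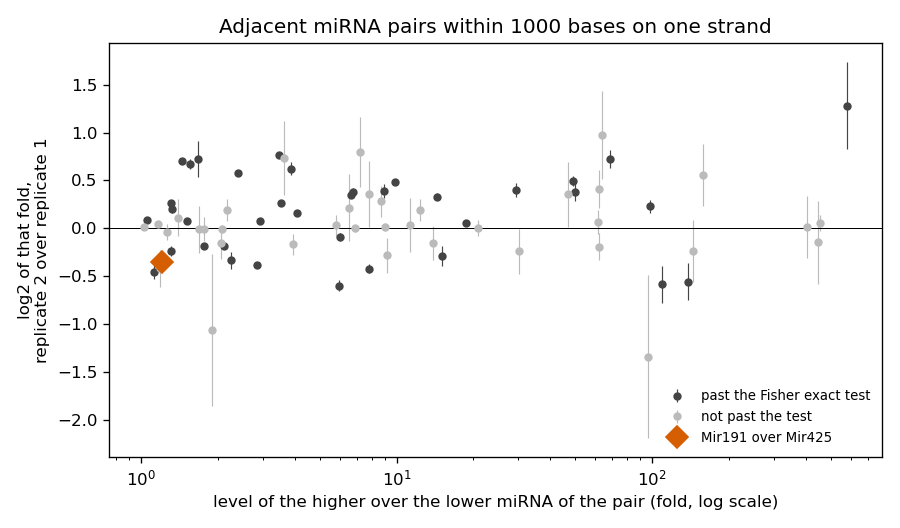
Log2 change of the ratio within 75 neighbouring miRNA pairs, replicate 2 over replicate 1, against the fold between the 2 members (log scale), with the counting SE as bars. The pair of Mir191 and Mir425 (diamond) lies at a fold of 1.21 and a change of -0.35, among pairs that changed in either direction.

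Reference miRNAs are used because they vary little, and 11 such genes were listed: Mir425, Gm24083 for Mir191, and 9 others. In these libraries 5 were higher in replicate 2, 4 were lower and 2 did not pass the test. Of all 390 features 27.7% were higher and 24.6% lower in replicate 2. The median log2 ratio of the list was -0.068, which is the value of Gm24083 itself, against 0.0030 over all features. Mir423 (0.42), Mir16-1 (0.36), Mir484 (0.31) and Mir16-2 (0.16) were higher in replicate 2 with Mir425. Mir103-2 (-0.69), Mir93 (-0.51) and Mir107 (-0.50) were lower in replicate 2 with Gm24083. Mir186 (-0.10) and Mir103-1 (-0.50, on 36 and 23 reads) did not pass. Reads that Mir16-1 and Mir16-2 share, or Mir103-1 and Mir103-2, have several positions and are not counted. The ratios of these rows thus do not cover all reads of miR-16 or miR-103. Of the 11, Mir191 had the smallest absolute log2 ratio under TMM, whereas under total counts Mir16-2 (0.037), Mir425 (0.15) and Mir484 (0.19) lay nearer 0 than Mir191, whose ratio was then -0.194.

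Like Mir378a, several miRNAs lie in introns of metabolic or contractile genes. Of 7 listed, 3 were lower in replicate 2 and 4 did not pass the test, while 24.6% of all features were lower (35.6% with total counts). Mir107 and Mir103-2, in introns of pantothenate kinase genes, were lower (-0.50 and -0.69), as was Mir499 of the myosin gene Myh7b (-0.59). Mir33 of Srebf2, a regulator of cholesterol synthesis, had -0.23 and did not pass, nor did Mir208b (0.099). Mir103-1 (-0.50, on 36 and 23 reads) and Mir208a (0.42, on 33 and 11 reads) also did not pass, on few reads. By counted reads Mir378a was the highest in level: Mir107, the highest of the 7, averaged 1036 CPM. Reads that Mir103-1 and Mir103-2 share have several positions and are not counted, so the full level of miR-103 is not known.

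Marker lists of other cell types were measured beside the 3 loci. Erythroid markers (3 of 4 with a row, none at 0) summed to 1406 CPM in replicate 2 and 1093 CPM in replicate 1, nearly all from Mir451a (1288 and 986 CPM), while Mir486a had 19.5 and 21.3 CPM. Leukocyte markers (3 of 4 with a row, none at 0) summed to 807 CPM in replicate 2 and 633 CPM in replicate 1, mostly from Mir223 (710 and 543 CPM). Mir142, whose reads lay on the opposite strand of another row, had 828 and 830 CPM, and with it the sums were 1636 and 1463 CPM. Endothelial Mir126a stood at 54165 CPM in replicate 2 and 41674 CPM in replicate 1. These sums and those of the epithelial and muscle lists had, like Mir425, more CPM in replicate 2, and their part in its difference was not tested. Within the epithelial list most of the gap came from Mir203 (35599 CPM in replicate 2 and 21094 CPM in replicate 1). Mir200b, Mir141 and Mir429 also had more CPM in replicate 2. Mir205 (7509 and 8705 CPM) and Mir200a (736 and 843 CPM) had less, and Mir200c (5141 and 5148 CPM) was nearly level. These CPM follow total counts. Under TMM Mir200c was called higher in replicate 2 (log2 ratio 0.12), Mir205 was called lower (-0.088) and Mir200a did not pass (-0.070). Skeletal muscle markers (5 of 6 with a row) summed to 13351 CPM in replicate 2 and 11714 CPM in replicate 1, nearly all from Mir206, with Mir133a-1 and Mir133a-2 at 0 in replicate 1. Reads that Mir133a-1 and Mir133a-2 share have several positions and are not counted, so these counts of 0 do not show that miR-133a was absent. Any marker sum that includes such paired genes can be too low for the same reason. Markers of brown fat and liver (3 of 3 with a row) summed to 56.2 and 68.8 CPM. The part of muscle in the level of Mir378a was not tested. In whole tissue, fewer cells of a type and less RNA per cell cannot be told apart.

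The opposite-strand column held the reads of other miRNAs as well. Of 19 rows with over 3 opposite-strand reads in each library, 16 had an annotated miRNA gene on the other strand, and none of those genes had a row. Gm25301 was the first of the 19 and Gm24083 the seventh. Together they held 35.4% of all opposite-strand reads in replicate 2 and 36.6% in replicate 1. Next above and below Gm24083 stood the rows for Mir380 (2965 ± 103 CPM) and Mir142 (829 ± 0.913 CPM), and next below Gm25301 the row for Mir409 (8252 ± 1779 CPM). A table of gene-strand counts alone would hold no read of Mir191 or Mir378a.

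**Figure D4:**
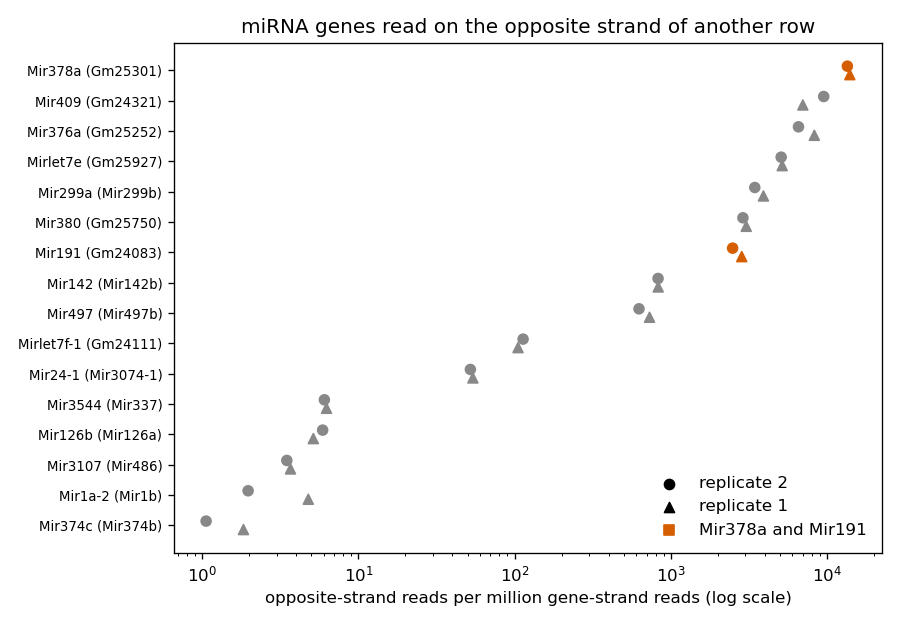
Opposite-strand reads in CPM of the gene-strand total (log scale) in replicate 2 (circles) and replicate 1 (triangles) for the 16 rows that lie opposite an annotated miRNA gene, named by that gene with the row in brackets. Mir378a is highest, at 13481 and 13974 CPM, and Mir191 stands at 2485 and 2842 CPM.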

How the data were processed

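Small RNA libraries of 2 replicates were analysed. Deposited were raw counts of reads for each miRNA gene, aligned to mm10 and counted over GENCODE M4, per the metadata text beside them. Aligner and adapter trimming: not given in the sources used here. The files have 1973 gene rows each, 4 summary rows and 3 count columns in the layout of STAR gene counts (both strands, gene strand, opposite strand). No gene count holds reads at several positions (28.5% in replicate 2, 29.8% in replicate 1). The summary rows, 48.4% of reads in replicate 2 and 49.4% in replicate 1, were left out of library sizes.

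Names and positions came from GENCODE M21 on the same assembly (1894 of 1973 identifiers matched), and sequences from RefSeq. Library sizes were TMM factors of edgeR 4.0.16 over gene-strand rows with a mean of at least 10 counts. Binomial and Fisher's exact tests used scipy 1.17.1, with a threshold of 0.05 after Benjamini-Hochberg adjustment, and log2 ratios used a prior of 0.5 counts. The binomial step was tested on simulated counts that held counting error only. That check could not show how the step fares with spread between samples. With 1 group of 2 samples no quasi-likelihood test between conditions exists. The p-values cover counting error only, since the tests hold no spread between samples. Molecular identifiers are not described, so copies of a molecule made by PCR may count as separate reads and the counting error may be understated.

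Named genes were the 3 loci, the miR-378 family, reference miRNAs, miRNAs in introns of metabolic genes, marker lists, opposite-strand rows and the 3 features nearest in level to each locus. The members and lists were chosen with earlier results of these data known. Mir489, Mir351, Mir503 and Mir25, and the comparison of neighbouring pairs, were chosen after the data were seen. Alternatives were total counts, DESeq2 1.42.0 size factors, TMM over all rows, other filters, priors and scaling totals, the unstranded column and each replicate left out.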

Additional observations from a re-analysis of the deposited data

Results flagged for a closer look

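Opposite-strand reads also lay outside the loci described above. Besides Gm24083 and Gm25301, 17 rows had over 3 opposite-strand reads in each library, above the limit that a count of 0 allows. They summed to 29134 CPM in replicate 2 and 29139 CPM in replicate 1, a mean of 29136 CPM on the gene-strand total. The highest were the rows for Mir409, Mir376a and Mirlet7e.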

How the results depend on the processing

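Scaled to all reads in the file, the levels were 1075 CPM for Mir425, 1301 CPM for Gm24083 and 6708 CPM for Gm25301, and scaled to both strands together Gm25301 stood at 13130 CPM. Left to 1 replicate, the levels ranged from 2083 to 2315 CPM for Mir425, from 2485 to 2842 CPM for Gm24083 and from 13481 to 13974 CPM for Gm25301. The log2 ratio of Gm25301 turned to -0.052 with total counts. The call of Gm24083 was lost with DESeq2 size factors (-0.011) and with TMM over all rows (-0.021), and that of Mir425 held in each alternative, between 0.15 and 0.34. With total counts 65 features were higher and 139 lower in replicate 2, against 108 and 96 with TMM. The median log2 ratio of the reference miRNAs was 0.047 with a minimum mean of 100 counts. With total counts it was -0.19, again the value of Gm24083 itself. Within 10000 bases 61 of 122 neighbouring pairs were called. TMM over all rows and the wider pairs were chosen after the data were seen. No paired analysis was possible because there is 1 group. The 2 libraries give no residual spread once 1 is left out, so the binomial test has no value without a replicate.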
